A study of Rattus norvegicus with 12 samples.

Results

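The genes described here encode 10 G protein coupled receptors that modulate pain: the 4 opioid receptors (Oprm1, Oprd1, Oprk1 and Oprl1), the cannabinoid receptor CB1 (Cnr1), the adrenergic receptor alpha-2A (Adra2a), the peptide receptors for cholecystokinin (Cckbr), neuropeptide Y (Npy1r) and galanin (Galr1), and the bradykinin receptor B2 (Bdkrb2). They were taken by name, with every probe set that the platform annotation assigns to each gene alone. Of the 10 genes, 9 were measured among the 10411 genes of the array, by 18 of its 15923 probe sets. No probe set was assigned to Npy1r in the annotation used here, so this receptor was not analysed here. The tissue was the L4/L5 dorsal root ganglia, where the cell bodies of sensory neurons lie, of adult male Sprague Dawley rats. The 12 Affymetrix arrays formed 4 groups of 3 in a cross of 2 genetic sub-lines, High Pain (HP) and Low Pain (LP), with 2 operations. The operations were spinal nerve ligation (SNL), a tie around the L4 and L5 nerves with the ganglia taken 3 days later, and a sham operation that left the nerve intact, for which no interval is labelled. All animals share strain, sex and stage. The labels do not say whether an array holds 1 animal or a pool, nor that replicates come from different animals. A p-value therefore measures the spread between these samples alone, and that spread may be technical.

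Opioid receptors, CB1, the galanin receptor GalR1 and the alpha-2A receptor act mainly through Gi/o proteins. In sensory neurons these proteins lower cyclic AMP, close N-type calcium channels and so reduce transmitter release from nociceptors, the neurons that report painful stimuli. The cholecystokinin receptor CCK-B and the bradykinin receptor B2 act mainly through Gq proteins: cholecystokinin at CCK-B opposes opioid analgesia, and bradykinin at B2 sensitises nociceptors. Each array gives 1 signal per probe set on a linear scale, and the median signal of an array lay between 278.4 and 313.2. Tests were run by limma on log2 of the signal plus 1 over all genes, with the brightest probe set standing for a gene, and a gene was called at an adjusted p under 0.05 (Benjamini-Hochberg over all genes, two-sided). Log2 differences are given ± SE on that scale, which understates the change of dim genes, and signals as mean ± SD with n = 3.

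Of the 9 receptor genes, Cckbr rose after ligation in the HP and in the LP line, and Oprl1, the nociceptin receptor gene, fell in the LP line. Oprm1, Oprd1, Oprk1, Cnr1, Galr1, Adra2a and Bdkrb2 were not called in either line. In HP, 1 of 9 receptor genes was called, where 13.6% of all genes were. In LP, 2 of 9 were called, where 14.4% of all genes were, so the receptors as a set were called at about the rate of the array. The median log2 difference over the 9 genes was 0.29 in HP and -0.18 in LP, beside 0 and 0.02 over all genes. Atf3, which injured axons switch on, rose from 303 ± 102 to 1663 ± 114 in HP and from 267 ± 53.0 to 1918 ± 167 in LP, which checks the ligation labels.

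**Figure D1:**
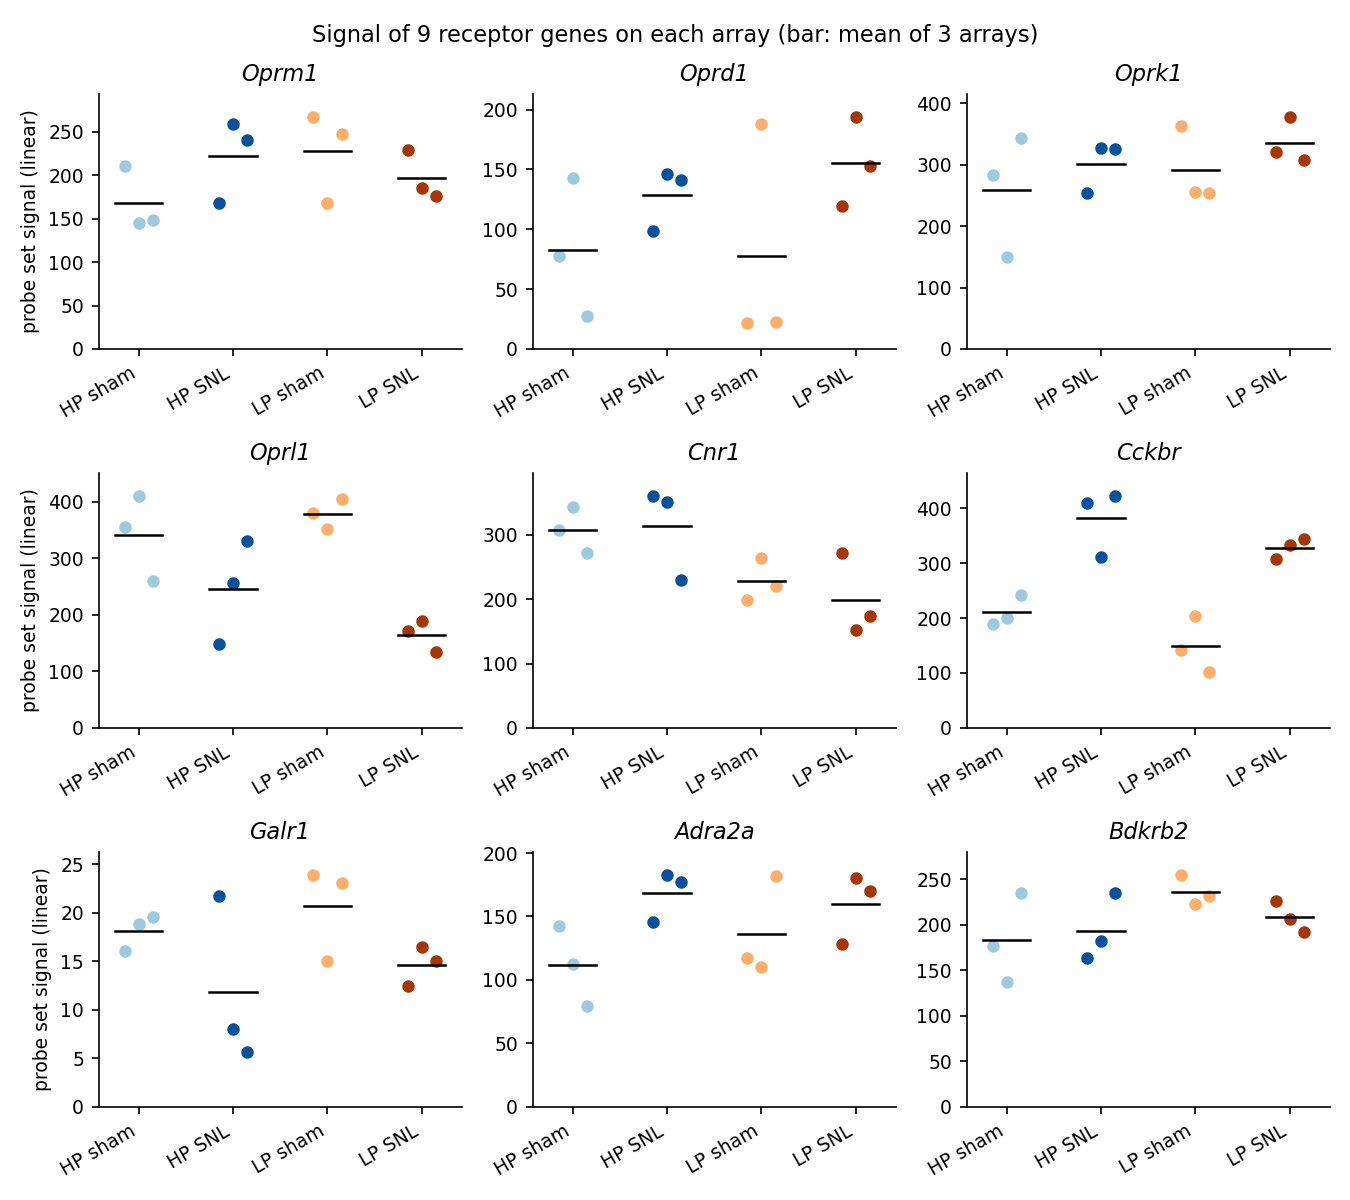
The probe set signal (linear scale, from 0) of 9 receptor genes is plotted for each of the 12 arrays by group, with a bar at the mean of 3 arrays. For Cckbr all 6 SNL arrays lie above all 6 sham arrays, and for Oprl1 the 3 LP SNL arrays, at 133.9 to 189.3, lie below the 3 LP sham arrays.

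Cckbr, which encodes the CCK-B receptor, showed the clearest rise. In HP its signals on the probe set 1369713_at were 188.5, 200 and 242.5 after sham and 409.6, 311.8 and 422.6 after SNL. In LP they were 142.1, 202.9 and 102.7 after sham and 307.3, 332.1 and 343.7 after SNL. The groups did not overlap in either line, and the lowest SNL array, at 307.3, lay above the highest sham array, at 242.5. The group mean went from 210 ± 28.4 to 381 ± 60.6 in HP, a log2 difference of 0.85 ± 0.22 (95% interval 0.36 to 1.35, limma adjusted p = 0.0317). In LP it went from 149 ± 50.5 to 328 ± 18.6, a difference of 1.18 ± 0.22 (0.69 to 1.68, adjusted p = 0.0061). The difference between the lines in this response was 0.33 (interval -0.37 to 1.03, adjusted p = 0.988).

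The HP call of Cckbr was narrow. It was kept in 17 of 24 alternatives, and the difference ran from 0.59 to 0.99 over them. The adjusted p was 0.104 without HP sham replicate 1 and 0.0876 without HP sham replicate 2. It was 0.0899 when HP SNL replicate 1 was left out and 0.102 when HP SNL replicate 3 was, and in these 4 fits the difference was 0.77 to 0.82. In HP the ratio of the 3' to the 5' beta-actin control probe set, a sign of RNA integrity, ran from 1.483 to 1.847 after sham and from 1.118 to 1.342 after SNL. With that ratio as a covariate the difference of Cckbr was 0.89 (adjusted p = 0.0999). Averaged over the lines, a contrast added after the data were seen, Cckbr differed by 1.02 ± 0.16 (adjusted p = 0.00103), and it was called in all 23 alternatives of that contrast (adjusted p up to 0.00924).

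The second probe set of Cckbr, 1371159_a_at, did not show the rise. The HP arrays read 96.7, 163.4 and 176.3 after sham and 231.2, 178.3 and 137.2 after SNL. In LP the readings were 175.2, 172.0 and 290.8 after sham and 186.2, 184.4 and 158.9 after SNL. The groups overlapped in each line, and the differences were 0.34 ± 0.28 in HP and -0.23 ± 0.28 in LP (limma adjusted p = 0.53 and 0.704 over all probe sets). Affymetrix gives the suffix _a_at to probe sets that match several transcripts of 1 gene. Over the 12 arrays the log2 signals of the 2 probe sets had a correlation of -0.20. With the mean of the 2 probe sets in place of the brighter one, the LP difference was 0.48 (adjusted p = 0.0798). The HP call of Cckbr and the call averaged over the lines were kept with this mean. The rise of Cckbr was thus seen on 1 of its 2 probe sets.

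The stretch before the start of Cckbr is shown because it is the receptor gene called in the HP and in the LP line. These are the 250 bases before its annotated start in RefSeq, build GRCr8, plus strand, chr1:169183328-169183577:
Cckbr: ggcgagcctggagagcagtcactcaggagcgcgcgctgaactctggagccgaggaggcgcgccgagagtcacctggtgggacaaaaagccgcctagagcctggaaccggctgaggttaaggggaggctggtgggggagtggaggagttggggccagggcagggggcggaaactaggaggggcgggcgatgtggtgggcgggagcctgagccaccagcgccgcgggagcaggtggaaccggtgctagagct
No base is in capitals because none of the 4 motifs searched was found. RefSeq windows of 300 bases, from 250 before to 50 after a start, were held for 6 of the 10 genes (7 windows, 2 of them for Oprm1). The motifs were TGACGTCA (the cyclic AMP response element), TGANTCA (the AP-1 site) and 2 parts of the site of the repressor REST, TTCAGCACC and GGACAG, searched on both strands. The GGACAG core was in 1 of the 2 Oprm1 windows and in the Galr1 window, and 21.7% of all 33469 windows hold it. The other motifs were in none of the 7 windows, where 1.83%, 7.33% and 0.356% of all windows hold TGACGTCA, TGANTCA and TTCAGCACC. The Cckbr window is 66.7% G and C, beside a median of 51.7% over all windows.

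Oprl1 encodes the receptor for nociceptin, an opioid-like peptide. On the probe set 1369646_at its signals in LP were 380.3, 352.2 and 405.5 after sham and 171.5, 189.3 and 133.9 after SNL. The 2 LP groups were well apart, with the mean going from 379 ± 26.7 to 165 ± 28.3. The log2 difference was -1.21 ± 0.27 (interval -1.82 to -0.60, limma adjusted p = 0.015), a signal at 0.43 of the sham level. In HP the signals were 354.9, 411.0 and 260.9 after sham and 148.5, 257.0 and 330.5 after SNL. These overlapped, and the HP difference of -0.53 ± 0.27 was not called (interval -1.14 to 0.08, adjusted p = 0.256). The LP call was lost in 1 of 24 alternatives, without LP SNL replicate 3 (-1.07, adjusted p = 0.062).

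A dimmer probe set of Oprl1, 1387661_a_at, fell further in LP. Its signals were 117.0, 164.8 and 127.1 in LP sham and 54.7, 41.6 and 36.0 in LP SNL, a difference of -1.61 ± 0.23 (limma adjusted p = 0.00187 over all probe sets) that was called in all 21 alternatives run. In HP it read 150.2, 95 and 163.2 after sham and 131.2, 103.6 and 128.4 after SNL, a difference of -0.14 ± 0.23 (adjusted p = 0.787). The LP SNL arrays lay below every HP SNL array on this probe set, and the line difference after SNL was -1.45 ± 0.23 (limma adjusted p = 0.0555). That difference passed in 2 of 21 alternatives, with median centring (adjusted p = 0.0481) and with array weights (0.0469), and its adjusted p ran up to 0.206. The ligation difference in LP minus that in HP was -1.47 ± 0.33 (interval -2.21 to -0.74, unadjusted p = 0.00121), and it did not pass over all probe sets (adjusted p = 0.661). The test of the difference thus did not show an unequal response of Oprl1 in the 2 lines.

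The third probe set of Oprl1, 1369645_at, was not called. The HP arrays read 275.4, 224.9 and 257.4 after sham and 308.2, 192.6 and 240.1 after SNL. In LP the readings were 231.5, 177.9 and 379.7 after sham and 282.3, 276.1 and 228.8 after SNL. Its differences were -0.05 ± 0.26 in HP and 0.06 ± 0.26 in LP, with an LP interval of -0.52 to 0.65 that does not reach the -1.21 of the brightest probe set. Over the 12 arrays the 2 probe sets that fell in LP had a correlation of 0.65, and each had -0.12 or -0.05 with 1369645_at. All 3 carry the same accession in the annotation, and which transcripts each one reads was not tested. The fall in LP thus showed on 2 of the 3 probe sets of Oprl1.

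**Figure D2:**
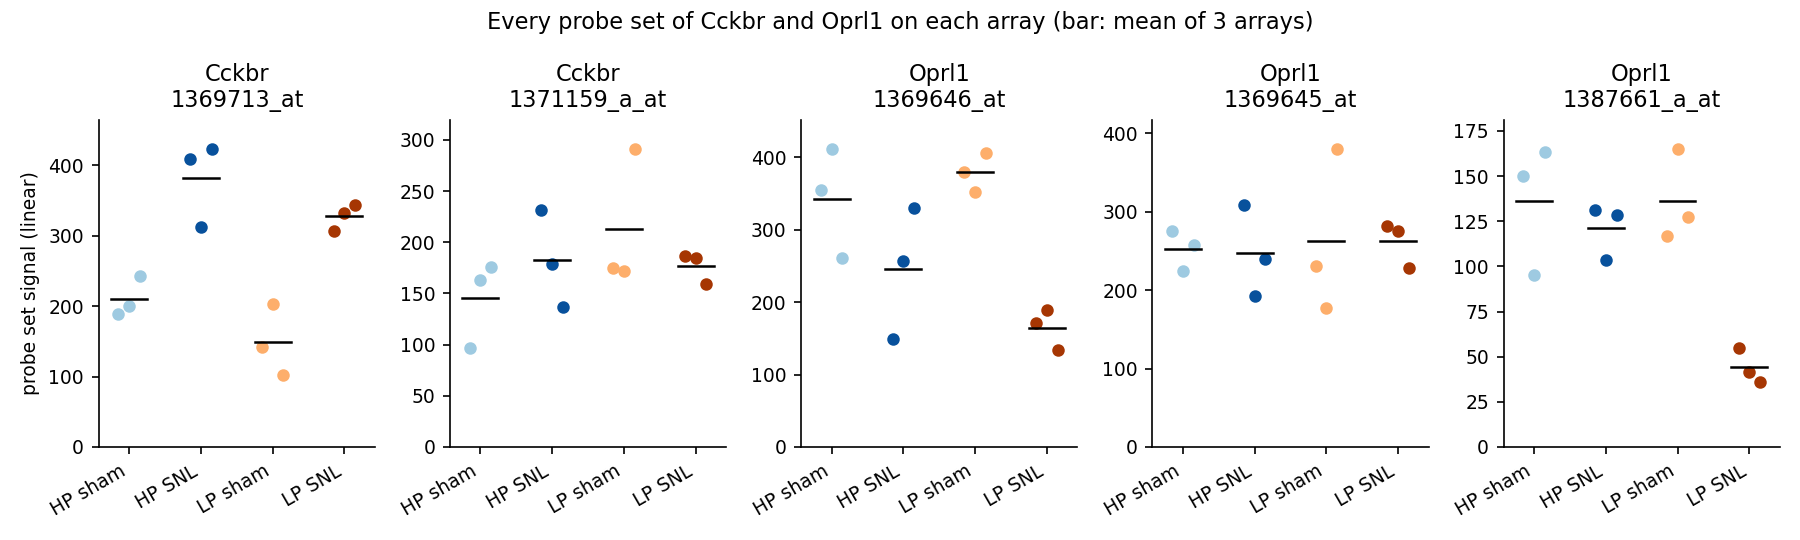
The signal (linear scale, from 0) of both probe sets of Cckbr and all 3 of Oprl1 is plotted for each array by group, with a bar at the mean of 3 arrays. The rise of Cckbr is seen on 1369713_at and not on 1371159_a_at, and the LP fall of Oprl1 on 1369646_at and 1387661_a_at and not on 1369645_at.

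Oprm1 encodes the mu receptor, the main target of morphine. On 1387461_at the HP arrays read 211.3, 145.6 and 148.8 after sham and 168.5, 259.7 and 240.3 after SNL. The LP arrays read 267.6, 167.8 and 247.4 after sham and 229.6, 185.7 and 176.3 after SNL. Sham and SNL overlapped in each line, with differences of 0.40 ± 0.23 in HP (interval -0.12 to 0.91, adjusted p = 0.314) and -0.19 ± 0.23 in LP (-0.70 to 0.33, adjusted p = 0.675). The dimmer Oprm1 probe set, 1369109_at, lay between 45.5 and 88.2 on all arrays. It differed by 0.02 ± 0.19 in HP and by 0.51 ± 0.19 in LP (limma adjusted p = 0.962 and adjusted p = 0.121 over all probe sets). The LP difference passed in 2 of 21 alternatives (adjusted p up to 0.513), with array weights (0.62, limma adjusted p = 0.044) and without LP sham replicate 1 (0.69, adjusted p = 0.0443). The 2 probe sets of Oprm1 had a correlation of -0.25 over the arrays.

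Oprd1 encodes the delta receptor, the main receptor for enkephalins. It was the most uneven of the 9 genes among sham arrays. On its single probe set the HP arrays read 77.8, 142.7 and 27.6 after sham and 98.2, 146.2 and 140.9 after SNL. The LP arrays read 21.5, 187.8 and 22.8 after sham and 119.5, 194.0 and 153.1 after SNL. Of the 6 sham arrays, 3 lay at 27.6 or below and the other 3 between 77.8 and 187.8, while all 6 SNL arrays were at 98.2 or above. The differences of 0.89 ± 0.79 in HP and 1.72 ± 0.79 in LP (interval -0.04 to 3.48) were not called (adjusted p = 0.532 and 0.193). Without LP sham replicate 2, the sham array at 187.8, the LP difference was 2.73 (limma adjusted p = 0.0148), with LP sham left at 21.5 and 22.8. This was the only 1 of 23 alternatives that called Oprd1 in LP (adjusted p up to 0.502).

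Oprk1 encodes the kappa receptor, the target of dynorphins. On its brightest probe set, 1368198_at, it lay between 150.3 and 378.4 on the 12 arrays, with differences of 0.29 ± 0.28 in HP and 0.22 ± 0.28 in LP (adjusted p = 0.562 and 0.682). On 1387102_at the differences were -0.23 ± 0.19 and -0.05 ± 0.19. The dimmest probe set, 1368197_at, read 66.2, 20.7 and 38.8 after sham and 10.3, 8.6 and 20.0 after SNL on the HP arrays. In LP the readings were 24.4, 29.8 and 46.5 after sham and 23.3, 8.9 and 8.9 after SNL. Every SNL array lay below every sham array of its line, but the values are close to the 5th percentile of the arrays (12.4 to 20.8). The differences of -1.56 ± 0.50 in HP and -1.32 ± 0.50 in LP were not called over all probe sets (adjusted p = 0.0784 and 0.126). The HP difference passed in 2 of 21 alternatives (adjusted p up to 0.24), with array weights (-1.79, limma adjusted p = 0.0394) and without HP sham replicate 2 (-1.97, adjusted p = 0.0465). Averaged over the lines it was -1.44 ± 0.35 (adjusted p = 0.0154), called in all 20 alternatives of that contrast, so the 3 probe sets of Oprk1 did not give 1 answer.

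Cnr1 encodes CB1, the main neuronal cannabinoid receptor. On 1369677_at the HP arrays read 308.0, 343.5 and 272.2 after sham and 360.6, 350.9 and 229.1 after SNL. Readings in LP were 198.9, 263.5 and 220.0 after sham and 271.1, 151.4 and 173.9 after SNL. Ligation changed the mean by 0 ± 0.24 in HP and -0.23 ± 0.24 in LP (adjusted p = 0.995 and 0.606). The 3 LP sham arrays lay below the 3 HP sham arrays. The LP line was lower by -0.44 ± 0.24 after sham and by -0.67 ± 0.24 after SNL, and neither passed (adjusted p = 0.602 and 0.355). On 1387674_at the LP sham arrays, at 219.4, 276.4 and 276.5, overlapped with the HP sham arrays, at 232.6, 195.9 and 232.3. After SNL that probe set read 258.1, 279.3 and 229.6 in HP and 220.3, 191.0 and 195.8 in LP, a line difference of -0.33 ± 0.13 (limma adjusted p = 0.412 over all probe sets).

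Adra2a encodes the alpha-2A receptor, a target of clonidine. The HP arrays read 142.9, 112.8 and 79.6 after sham and 145.3, 182.9 and 176.8 after SNL, which did not overlap. The LP arrays read 117.1, 110.3 and 181.5 after sham and 128.0, 180.6 and 169.9 after SNL, which overlapped. The differences of 0.62 ± 0.25 in HP (interval 0.07 to 1.17) and 0.25 ± 0.25 in LP were not called (adjusted p = 0.14 and 0.593). Groups that do not overlap are common here: 34.3% of all genes had none in HP and 31.2% in LP, beside 2 of 9 receptor genes in each line. Between the lines, 15.6% of all genes did not overlap after sham and 17.4% after SNL, beside 1 (Cnr1) and 0 of the 9.

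Bdkrb2 encodes the B2 receptor, the constitutive bradykinin receptor. On its brightest probe set, 1371120_s_at, it differed by 0.10 ± 0.19 in HP and -0.18 ± 0.19 in LP (adjusted p = 0.806 and 0.613), with signals of 137.6 to 255.0. The suffix _s_at marks probe sets that can match more than 1 gene, so this level is uncertain. The gene's other probe set without that suffix, 1370649_at, read 107.0, 99.9 and 128.6 after sham and 179.4, 172.4 and 149.0 after SNL on the HP arrays, which did not overlap. Its difference of 0.58 ± 0.20 was not called over all probe sets (adjusted p = 0.111). Readings in LP were 203.7, 223.6 and 148.2 after sham and 137.1, 206.2 and 212.3 after SNL, which overlapped, and all LP sham arrays lay above all HP sham arrays. The line difference of 1370649_at after sham was 0.76 ± 0.20 (unadjusted p = 0.00408, adjusted p = 0.324). The remaining probe set, 1370650_s_at, lay between 52.0 and 117.1, with differences of 0.25 ± 0.23 in HP and 0.32 ± 0.23 in LP (adjusted p = 0.577 and 0.45). It too did not overlap in HP, at 95, 97.7 and 82.7 after sham and 102.6, 117.1 and 107.5 after SNL.

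Galr1 encodes the galanin receptor GalR1. Its probe set was near the bottom of every array, at 5.7 to 23.9, where the 5th percentile of an array was 12.4 to 20.8. The HP arrays read 16.1, 18.8 and 19.5 after sham and 21.7, 8.0 and 5.7 after SNL, a difference of -0.78 ± 0.38 (adjusted p = 0.22). Without HP SNL replicate 1, the array at 21.7, the difference was -1.30 (limma adjusted p = 0.00716). This was the only 1 of 23 alternatives that called Galr1 in HP (adjusted p up to 0.539). The LP arrays read 23.9, 15 and 23.0 after sham and 12.4, 16.5 and 15 after SNL, at -0.45 ± 0.38 (adjusted p = 0.504). The files used here hold no detection calls, so whether this signal is above background was not tested.

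**Figure D3:**
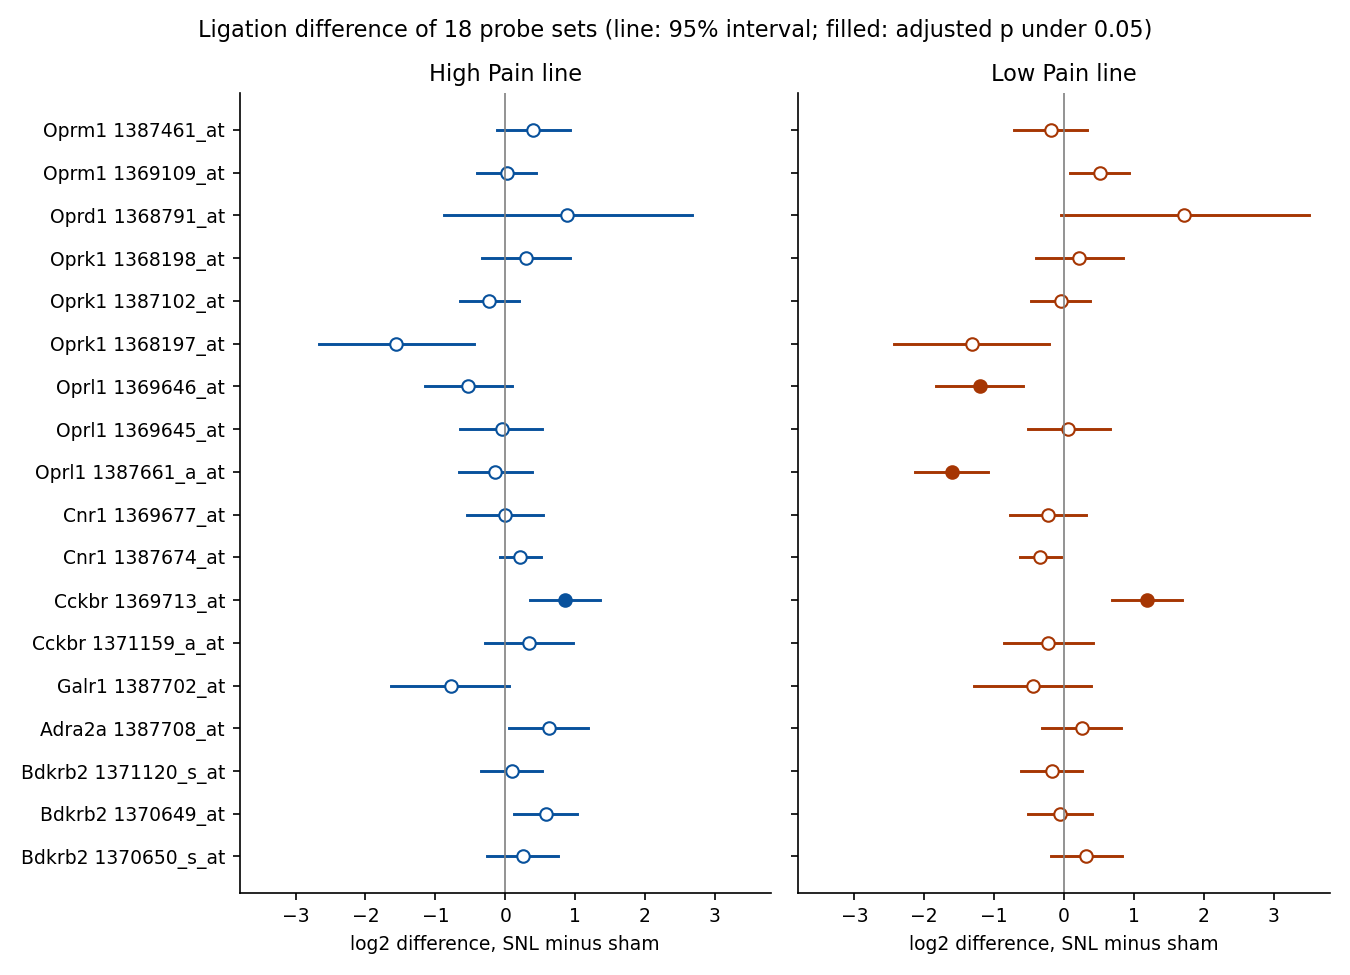
The log2 difference of SNL minus sham, with its 95% interval, is plotted for all 18 probe sets of the 9 receptor genes in the HP line (left) and the LP line (right). Filled points, with an adjusted p under 0.05 over all probe sets, are 1369713_at of Cckbr in HP and in LP, and 1369646_at and 1387661_a_at of Oprl1 in LP.

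Counted by probe set, 1 of 18 was called in HP, where 10.8% of all probe sets were, and 3 of 18 in LP, where 12.1% were. Averaged over the lines, 2 of 9 genes (Cckbr and Oprl1) were called, where 24.8% of all genes were, and 4 of 18 probe sets, where 21% were. Oprl1 differed by -0.87 ± 0.19 in this contrast (limma adjusted p = 0.00822), which was added after the data were seen. It was called in all 23 alternatives (adjusted p up to 0.0299). In the 12 pairs of probe sets of 1 gene, the correlation over arrays ran from -0.42 to 0.65, so probe sets of 1 gene often read differently. Replicates spread by a median SD of 0.524 (log2) among the dimmest 25% of genes and 0.131 among the brightest. The probe sets standing for the 9 receptors had median ranks between the 4.5th and the 51.1th percentile of an array. Their SEs for a ligation difference ran from 0.19 for Bdkrb2 to 0.79 for Oprd1.

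The next question was whether the HP and LP lines differed in these receptors. By limma, none of the 9 genes was called after sham, where 0.00961% of all genes (1 gene) were, or after SNL, where 0.173% were (18 genes). Over all probe sets 0.0441% and 0.145% were called, and none of the 18. At an unadjusted p under 0.05 there was 1 of the 9 receptor genes in each case, beside 1016 of all 10411 genes after sham and 1110 after SNL. After sham it was Cckbr, lower in LP by -0.54 ± 0.22 (unadjusted p = 0.036, adjusted p = 0.476), with LP sham arrays at 142.1, 202.9 and 102.7 and HP sham arrays at 188.5, 200 and 242.5. After SNL it was Cnr1, given above (unadjusted p = 0.0184). For the interaction, the ligation difference in LP minus that in HP, 0% of all genes and of all probe sets passed by limma (490 at an unadjusted p under 0.05), and of the 9 receptors none did at either threshold. On the brightest probe sets the interaction intervals were wide, from -1.31 to 0.14 for Oprm1, -1.54 to 0.18 for Oprl1 and -0.37 to 1.03 for Cckbr. With 3 arrays a group, unequal responses within these bounds are not excluded. On dimmer probe sets, the intervals of Oprl1 1387661_a_at (-2.21 to -0.74) and Cnr1 1387674_at (-0.97 to -0.14) lay below 0. Neither passed by limma over all probe sets (adjusted p = 0.661 and 0.984).

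The genes that supply, transmit and limit these receptors' signals were read from lists chosen with earlier results of these data known. Over all genes, 7.02% rose and 6.61% fell in HP, and 7.66% rose and 6.79% fell in LP. Of 12 measured genes of ligands and their processing, 3 rose in HP and 2 in LP, and none fell. Gal, the galanin precursor, rose from 1061 ± 281 to 4529 ± 482 in HP and from 945 ± 225 to 4291 ± 482 in LP (log2 2.12 ± 0.22 and 2.21 ± 0.22). Npy, the neuropeptide Y precursor, rose by 1.41 ± 0.24 and 1.43 ± 0.24. Pomc, the endorphin precursor, rose in HP by 0.48 ± 0.12 (adjusted p = 0.0243, 0.0179 to 0.354 over alternatives), at signals of 16.5 ± 1.85 and 23.4 ± 2.70 near the bottom of the arrays, and was at 0.20 ± 0.12 in LP (adjusted p = 0.321). The call held in 12 of 23 alternatives and was lost, among others, without HP sham replicates 1 and 2 (0.0565 and 0.0823) and HP SNL replicates 2 and 3 (0.0854 and 0.0827). Penk, the enkephalin precursor, differed by -0.25 ± 0.18 and -0.41 ± 0.18, and Cck, the cholecystokinin precursor, by 0.39 ± 0.26 and 0.52 ± 0.26, in HP and LP, without a call (adjusted p = 0.443, 0.184, 0.386 and 0.229).

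Of 23 other measured receptors of these and related families, 3 fell in HP and 3 in LP, and none rose. They were the same 3 genes in each line. Adra2c, the alpha-2C receptor, fell from 374 ± 19.3 to 198 ± 44.8 in HP (-0.94 ± 0.20) and from 408 ± 80.8 to 246 ± 53.4 in LP (-0.73 ± 0.20). The HP call of Adra2c was lost with the actin covariate (adjusted p = 0.101) and when HP sham replicate 3 or HP SNL replicate 3 was left out (0.0501 and 0.0538). The LP call (adjusted p = 0.0354) was lost in 10 of 24 alternatives. Among these were the fits without LP sham replicates 1 and 3 (0.116 and 0.0718), LP SNL replicates 1 and 3 (0.119 and 0.12) and HP sham replicates 1, 2 and 3 (0.0536, 0.0513 and 0.051). Gpr149, an orphan receptor, fell (-1.70 ± 0.23 and -1.62 ± 0.23), as did Mrgprx3, a Mas-related receptor (-0.52 ± 0.11 and -0.78 ± 0.11), and these 2 were called in all 24 alternatives in each line. The other members of the alpha-2 and galanin families were not called: Adra2b differed by -1.44 ± 0.80 and 0.97 ± 0.80, Galr2 by -0.19 ± 0.20 and 0.02 ± 0.20 and Galr3 by 0.26 ± 0.14 and 0.04 ± 0.14.

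Downstream of the receptors, genes changed in both directions. Of 18 measured G protein subunits, 2 rose and 3 fell in HP, and 2 rose and 2 fell in LP. The rises, of Gng5 and Gng11, numbered 0 without HP sham replicate 1 (in HP) and without LP SNL replicate 1 (in LP), and 1 in HP without any other single array but LP sham replicate 1, and 1 in LP without any other single LP array but LP SNL replicate 2. With the actin covariate 1 subunit fell in HP. Gnai1, an inhibitory alpha subunit, fell in HP (-0.53 ± 0.11) and in LP (-0.72 ± 0.11). Gnao1, the alpha subunit that couples opioid receptors to calcium channels, fell from 2415 ± 239 to 1527 ± 62.8 in HP (-0.66 ± 0.14) and from 2671 ± 323 to 1418 ± 249 in LP (-0.92 ± 0.14). Its HP call was lost with the actin covariate (adjusted p = 0.065) and without HP sham replicate 1 (0.0541). Gnb5, a beta subunit that pairs with RGS proteins, fell in HP (-0.80 ± 0.17, adjusted p = 0.0117; 0.0752 with the actin covariate) and was at -0.53 ± 0.17 in LP (adjusted p = 0.0624; 0.0355 without LP sham replicate 3). Gng11, a gamma subunit, rose by 0.79 ± 0.17 and 0.68 ± 0.17 (adjusted p = 0.0135 and 0.0245). Its HP call was lost when HP sham replicate 1 (0.0564) or, in turn, HP SNL replicate 3 (0.0524) was left out, and with the actin covariate (0.0736). Its LP call was lost without LP sham replicates 1 and 3 (0.0626 and 0.075) and LP SNL replicates 1 and 3 (0.0899 and 0.0904), and with the replicate block (0.0556), median centring (0.0543) and only the arrays compared (0.0834). Receptor kinases, arrestins and RGS proteins shorten G protein signals, and the list of them also held Gpsm1, Gpsm2 and Gpsm3, other modulators of G proteins. Of its 25 measured genes, 5 rose and 4 fell in HP, and 4 rose and 5 fell in LP. Gpsm3 was among the rises in HP (1.94 ± 0.37, limma adjusted p = 0.00761). The rises in HP numbered 3 without HP sham replicate 3 or HP SNL replicate 3 and 2 with the actin covariate. Rgs4 fell from 4826 ± 28.1 to 2172 ± 478 in HP (-1.17 ± 0.15) and from 5049 ± 143 to 1553 ± 197 in LP (-1.71 ± 0.15). Rgs10 fell (-1.06 ± 0.12 and -1.0 ± 0.12), and Rgs2 rose by 0.75 ± 0.09 and 0.79 ± 0.09. Rgs3 was at -0.68 ± 0.12 and -0.96 ± 0.12, but at -0.18 in LP with the mean of its probe sets (adjusted p = 0.413).

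Of 22 measured effectors, 2 rose and 2 fell in HP, and 1 rose and 1 fell in LP. When single arrays were left out, 1 to 3 rose and 1 to 2 fell in HP, and 1 to 2 rose and 0 to 2 fell in LP. The falls in HP, of Plcb2 and Prkaca, numbered 1 without any single array but LP SNL replicate 2 or 3, and the fall in LP 0 without LP SNL replicate 1 or 3. The calcium channel subunit gene Cacna2d1, the target of gabapentin, rose by 1.14 ± 0.12 and 1.32 ± 0.12. Cacna1b, the N-type channel that opioid receptors inhibit, differed by -0.25 ± 0.10 in HP (adjusted p = 0.145) and by -0.42 ± 0.10 in LP (adjusted p = 0.0225). The LP call of Cacna1b was lost without LP sham replicate 3 (0.0668), LP SNL replicate 1 (0.0613) and LP SNL replicate 3 (0.0869), and with the mean of its probe sets (-0.30, adjusted p = 0.489), the replicate block (0.0556) and only the arrays compared (0.1). Plcb2, a phospholipase C, fell from 132 ± 9.39 to 49.9 ± 13.2 in HP (-1.42 ± 0.30, adjusted p = 0.0123) and was at 0.52 ± 0.30 in LP (adjusted p = 0.308; 0.0281 without LP sham replicate 3), and the interaction of 1.95 did not pass (adjusted p = 0.745). Adcy2, an adenylyl cyclase, rose in HP (0.40 ± 0.11, adjusted p = 0.0322), a call lost without any 1 of HP sham replicates 1, 2 and 3 (0.0632, 0.106 and 0.0599) and HP SNL replicates 2 and 3 (0.0996 and 0.102). It was also lost with the actin covariate (0.0994), the replicate block (0.0691) and only the arrays compared (0.0866). Of 9 genes of endocannabinoid synthesis, breakdown and transport, 1 rose in each line: Fabp5, a fatty acid binding protein, at 0.47 ± 0.10 and 0.61 ± 0.10. Mgll, the lipase that breaks down 2-arachidonoylglycerol, was at 0.12 ± 0.27 and -0.26 ± 0.27 and was not called.

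**Figure D4:**
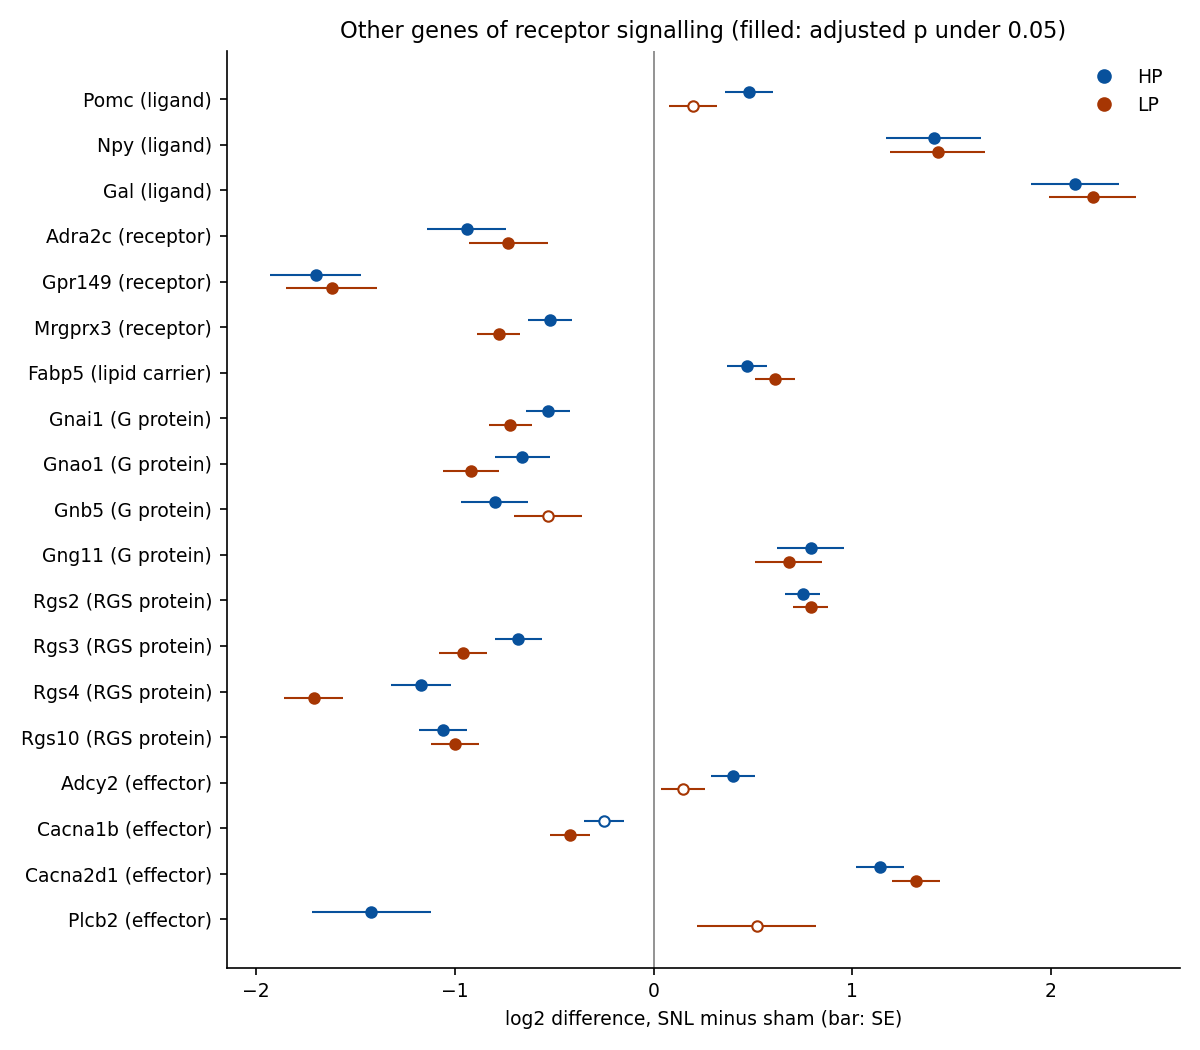
The log2 difference of SNL minus sham, with its SE as a bar, is plotted for the named genes of ligands, related receptors, lipid carriers, G proteins, RGS proteins and effectors, in the HP line and the LP line. Filled points have an adjusted p under 0.05, and Gal and Npy lie highest in each line while Rgs4 and Gpr149 lie lowest in LP.

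Whole ganglia were measured, so fewer cells of a type and less RNA per cell cannot be told apart, and marker genes of other cells also changed with ligation. Of 16 sensory neuron markers, 7 fell in HP and 8 in LP and none rose, with summed signals of 68817 to 73286 in HP sham and 59702 to 63174 in HP SNL, and 66389 to 72701 and 52884 to 59288 in LP. Among those that fell, in HP and LP, were Scn10a (-1.30 ± 0.08 and -1.86 ± 0.08) and Tac1 (-1.28 ± 0.15 and -1.69 ± 0.15). So did Trpv1 (-1.43 ± 0.17 and -1.43 ± 0.17) and Avil (-0.91 ± 0.10 and -1.02 ± 0.10). The pan-neuronal genes Uchl1 and Tubb3 differed by -0.02 ± 0.10 and -0.11 ± 0.13 in HP and -0.07 ± 0.10 and -0.18 ± 0.13 in LP and were not called. Of 11 macrophage markers, 8 rose in each line, with sums of 4030 to 4466 and 8827 to 10044 in HP sham and SNL and 3807 to 4102 and 8260 to 9504 in LP. The neuronal counts were 5 to 7 in HP and 7 to 8 in LP when single arrays were left out, and the macrophage counts stayed at 8. Of 12 satellite glia and Schwann cell markers 4 rose in each line (sums 33879 to 37981 and 41875 to 43561 in HP, 35638 to 41016 and 38166 to 38992 in LP). That count was 2 in HP without HP sham replicate 3 or HP SNL replicate 3 and with the actin covariate, and 2 in LP without LP SNL replicate 1 or LP SNL replicate 3. Of 10 endothelial and fibroblast markers 6 rose in HP and 5 in LP. In HP the count was 1 without HP sham replicate 1 or 3 or HP SNL replicate 3, 2 without HP SNL replicate 2 or with the actin covariate and 3 without HP sham replicate 2, and in LP it was 3 without LP SNL replicate 1 or 3. Of 7 skeletal muscle markers, 4 were called lower in HP and 0 in LP, with sums of 1384 to 2736 in HP sham and 1044 to 1430 in the other groups. The HP muscle count rests on each of several arrays: it was 0 without HP sham replicate 1, HP sham replicate 3 or any 1 HP SNL array, 1 without LP sham replicate 2 or with the actin covariate, and 2 without LP sham replicate 3 or LP SNL replicate 2. Of 5 genes listed as spinal cord markers 1, the myelin gene Cnp, rose in each line. Other myelin genes stand in the Schwann cell list, so Cnp does not set spinal cord apart from the ganglion. In HP Cnp was not called without HP sham replicate 1 (limma adjusted p = 0.109), HP sham replicate 3 (0.0939) or HP SNL replicate 3 (0.0985), nor with the actin covariate (0.135). No marker in these lists had an array at 0. The part of these cells in the rise of Cckbr and the fall of Oprl1 was not tested.

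As a description over the 12 arrays, the genes most like Cckbr among brighter genes were Psmd8, a proteasome subunit, Stx4, a syntaxin, and Iqgap1, a scaffold of the cytoskeleton, with Pearson correlations of 0.97, 0.95 and 0.94. Those most like Oprl1 were Napa, a SNARE adaptor, Ywhag, a 14-3-3 protein, and Nudc, a dynein-associated protein, at 0.94, 0.93 and 0.89. Their own ligation differences were nearer 0 than those of the receptors. Iqgap1 was at 0.67 ± 0.09 and 0.90 ± 0.09, and Napa at -0.25 ± 0.09 and -0.46 ± 0.09, in HP and LP. All these arrays share the ligation contrast, and the correlations carry no test.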

How the data were processed

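The deposited values are linear intensities, 1 for each probe set on each array, up to 13930.7. RMA is the only tool in the submitters' processing notes, with no version, yet every array has a mean of 500.1 once 2% is trimmed at each end, so the authors' steps are not settled here. No arrays were averaged before the tests, and whether an array itself holds a pool is not labelled. Probe sets were named from the platform annotation, with symbols updated by gene identifier through a RefSeq table (GRCr8) for 12748, by accession for 2, and kept for 33. Probe sets with several symbols (312), without a symbol (2771) or for controls (57) were left out of gene tests. A pseudocount of 1 was added before log2, since 3 of 191076 values were 0. The brightest probe set stood for each of 10411 genes (1868 had several). For the gene tests all 12 arrays entered 1 limma 3.58.1 fit in R 4.3.3 of 4 group means (8 residual and 2.05 prior degrees of freedom). Every probe set of the receptors was tested in a separate fit of the same model over 15866 probe sets, with its own prior. The number of arrays limits the precision.

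The receptors and gene lists were chosen with earlier results of these data known. Named were all receptors, up to 4 called genes with the smallest p per list, and for each called receptor the 3 genes with the highest correlation. Penk, Cck, Adra2b, Galr2, Galr3, Mgll, Gng5, Gpsm1, Gpsm2, Gpsm3, Prkaca, Uchl1 and Tubb3 were named outside this rule, after their values were seen. The rule was not carried out for every list. Of the injury genes only Atf3 was named, and no gene was named for the glial, macrophage, endothelial and fibroblast, and muscle markers. The alternatives were the replicate number as a block, a filter on dim genes, quantile normalization, median centring, pseudocounts of 16 and 32, trended robust variance, array weights, only the arrays compared, other uses of a gene's probe sets, the actin ratio and leaving out each array. The fit was tested on simulated data.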

Additional observations from a re-analysis of the deposited data

Results flagged for a closer look

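The probe set 1387674_at of Cnr1, the CB1 gene, had SNL arrays on opposite sides of the sham mean in the 2 lines, without a call in either (HP 0.21 ± 0.13, limma adjusted p = 0.368, and LP -0.34 ± 0.13, adjusted p = 0.135). All 3 HP SNL arrays (258.1, 279.3 and 229.6) lay above the HP sham mean of 220 ± 21.1, and all 3 LP SNL arrays (220.3, 191.0 and 195.8) lay below the LP sham mean of 257 ± 32.9. The ligation difference in LP minus that in HP was -0.55 ± 0.18 on the log2 scale (limma adjusted p = 0.984 over all probe sets), so the test of the difference did not pass. Such opposite directions were found in 691 of 15866 probe sets (4.36%) and in 1 of the 18 receptor probe sets. The brighter probe set of Cnr1 had -0.23 ± 0.34 for the same difference.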

How the results depend on the processing

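Of 2406 alternative values of the receptor probe sets, 2386 stayed on the same side of the threshold and none reversed a call; 74 values without a call changed sign. Called receptors in HP were 0 rather than 1 with the replicate block, quantile normalization or the actin covariate (Cckbr adjusted p = 0.0662, 0.077 and 0.0999), and 0 to 1 when an array was left out. In LP they were 1 rather than 2 when probe sets of a gene were averaged (Cckbr 0.48, adjusted p = 0.0798), and 1 to 3 when an array was left out. Genes called in HP were 816 with the actin covariate and 846 to 1489 (1419 in full) when an array was left out; in LP they were 814 from the LP arrays alone. Between lines after sham, 1 gene was called, and 0 with the replicate block, quantile normalization, median centring, the mean of probe sets or only the arrays compared, 2 with a pseudocount of 32, 3 with the actin covariate, 5 without the dimmest 25%, 6 with trended robust variance, 7 with every probe set, and 0 to 3 when an array was left out. After SNL, 18 were called, and 4 with only the arrays compared, 7 with the replicate block, 9 with the actin covariate, 11 with the mean of probe sets, 29 with a pseudocount of 32, 34 with array weights, 39 without the dimmest 25%, 52 with trended robust variance, and 1 to 26 when an array was left out. The interaction had 0, and 1 with the actin covariate and 0 to 2 when an array was left out. The causes of these shifts were not tested. No receptor was called for the lines or the interaction in any of these by its brightest probe set. The replicate numbers did not pair the arrays: same-numbered arrays of different groups had correlations of -0.18 to 0.11, over 0.1 in 1 of 18 pairs. Galr1 and the dimmest Oprk1 probe set lie too near the bottom of the arrays to set the size of a change.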
